A study of Danio rerio with 40 samples.

Results

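Every age and treatment group of this zebrafish series holds 1 library with far fewer counts than the other 4, and the 8 such libraries are described here against the other 32. They were chosen by 1 value, the lowest total count in the gene table within each of the 8 groups, and are called the shallow libraries: 8 of 40 in all. In the gene table they are replicate 5 of each calcitriol group and replicate 1 of each vehicle group. In the deposited exon table, whose columns were matched to them by shared counts, all 8 carry the same replicate number, 1, so they form 1 numbered set; the labels do not say what that number stands for. The study sequenced poly-A RNA of whole embryos and larvae (Segrest wild type) at 2, 4, 6 and 7 days post fertilization (dpf), in 5 libraries a group. VD3 animals received calcitriol, the active vitamin D hormone (1α,25-dihydroxyvitamin D3), at 300 pM, and ETOH animals received ethanol vehicle; both began 24 h after fertilization, and medium was renewed every 24 h. All animals, VD3 and ETOH alike, were also in 0.003% phenylthiourea, which blocks melanin, and RNA came from sets of 25 to 30 animals, so a library is a pool. A further experiment with larvae exposed from 6 dpf for 24 h is described in the labels, and no library is assigned to it there, which leaves the exposure of the 6 and 7 dpf animals uncertain. The labels give no cause for the low totals, and give no clutch for any library; p-values therefore reflect library-to-library spread, which may be technical.

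The programs described first are those of the circadian clock. In vertebrates the bHLH-PAS proteins Clock, Npas2 and Arntl (Bmal) switch on the period and cryptochrome genes, whose proteins then block those activators. The nuclear receptors of the REV-ERB and ROR families act on the arntl genes, and PAR-bZIP factors such as Tef and Dbp carry the rhythm to outputs. In zebrafish, cells of most tissues respond to light directly, per2 and cry1a are light-induced, and cell division in larvae is timed by the clock.

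Shallow libraries held 67235165 to 81298182 counts (median 74646704.5), and the other 32 held 106850887 to 214502251 (median 164822955). Each shallow total was 37.4% to 52.1% of the median of the other 4 libraries of its group, and 42.5% to 66.5% of the lowest of those 4. The closest pair was at 4 dpf VD3, with 71043189 counts in the shallow library and 106850887 in the next lowest. Depth and the set of shallow libraries cannot be told apart by design of the choice, so each result was also fitted with every library thinned to the lowest total. The same 8 libraries are the 8 columns of the deposited exon table that are blank in 168200 of its 194750 rows. With every library thinned to the lowest total, chi-square per degree of freedom was 112 to 329 between a shallow library and each of the other 4 at 6 and 7 dpf, and 9.4 to 97.4 among those other 4, with no overlap in any of these 4 groups. At 2 and 4 dpf it was 73.6 to 187 with a shallow library and 14.2 to 163 among the others, so that there the other 4 libraries also differed among themselves. At 4 dpf VD3 the median was 135 with the shallow library and 138 among the others, and the lowest values were 89.7 and 17.4. Before thinning, replicates 1 and 2 of that group (43.6) and 3 and 4 (28.8) were alike, and the shallow library had no such partner. Between these pairs the value was 293 to 304.5, against 130.5 to 221 with the shallow library. Such values grow with depth. After thinning the highest was 160 among the others and 179 with the shallow library. Before thinning, the others also formed 2 pairs at 2 dpf VD3 (29.9 and 40), 2 dpf ETOH (77.3 and 63.2) and 4 dpf ETOH (74.5 and 43.6). The tests counted the members of a pair as independent. A mean of 13636 genes was detected in the thinned shallow libraries and of 13707 in the others, a difference of -71.4 genes (exact permutation test within groups, two-sided, p = 0.0233, BH-adjusted over 2 measures p = 0.0465), with the shallow library higher in 2 of 8 groups. Without the 6 dpf ETOH, 7 dpf ETOH or 7 dpf VD3 group, the unadjusted p from the same exact test was 0.0813, 0.0547 or 0.157. The 10 most abundant genes took 15.2% of counts in shallow libraries and 14.9% in the others (exact permutation test, p = 0.108), and without the 2 dpf ETOH group that exact p was 0.0029. Markers of muscle, lens, liver and red blood cells were present in every library, as whole animals would give.

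**Figure D1:**
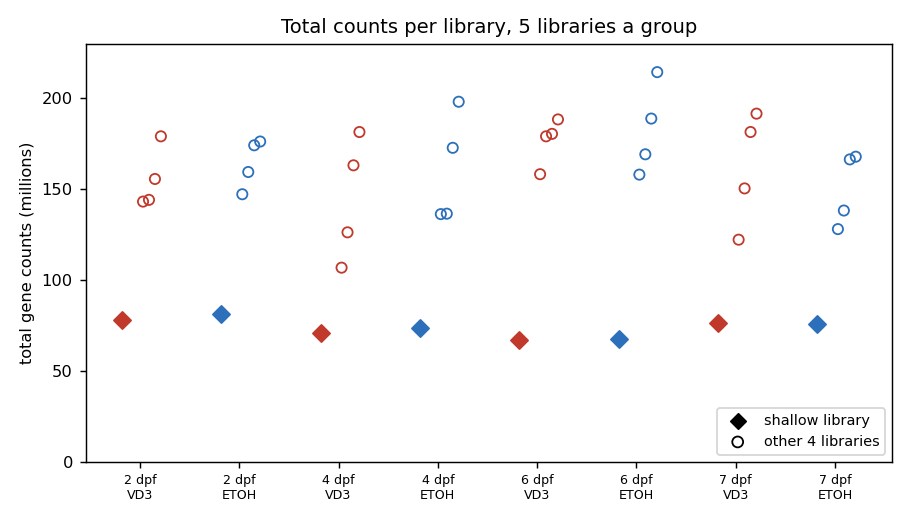
Total gene counts per library (vertical axis, from 0) for the 8 groups in order of age, VD3 in red and ETOH in blue. Filled diamonds are the shallow libraries and open circles the other 4 of the group. Every diamond lies at or below 81298182 counts and every circle at or above 106850887.

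The first comparison asks which genes move with the shallow libraries once age and treatment are removed by a group term. Of 13650 genes tested with edgeR's quasi-likelihood test (Benjamini-Hochberg adjusted p under 0.05), 6745 were called, which is 49.4%: 3305 were higher in the shallow libraries (24.2%) and 3440 lower (25.2%). Most of the differences were small, with a median absolute log2 fold change of 0.321 among called genes. With every library thinned to the lowest total, 6726 genes were called. At least a 2-fold difference was seen for 73 genes that were higher and 92 that were lower. The shallow library was above all 4 others in all 8 groups for 357 genes (2.62%) and below all 4 in all 8 groups for 418 (3.06%). Since so large a share of genes was called, a list is read here against these shares. Log2 fold changes below are shallow over other libraries, from this model and ± SE, and CPM are counts scaled to library size with TMM factors.

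Most clock genes were lower in the shallow libraries, fewer of them at 7 dpf than at the younger ages. Of 40 members of the 5 clock lists that were tested, 31 were lower (background 25.2%), 1 was higher (background 24.2%) and 8 were not called. Their median log2 fold change was -0.53, against -0.00311 for all genes tested, and 10 members were below all 4 other libraries in all 8 groups (background 3.06%). These lists were written with the clock difference already known, so the counts describe it and do not test it. All 10 tested period and cryptochrome genes were lower, with a median of -0.88, as were all 6 bHLH-PAS activators (-0.41) and all 7 REV-ERB and ROR receptors (-0.55). By age, 27, 23, 25 and 19 of the 40 were lower at 2, 4, 6 and 7 dpf (background 19.2%, 10.3%, 16.4% and 15.6%). At these ages 1, 0, 1 and 3 were higher (background 17.0%, 7.40%, 16.2% and 17.6%). In bulk libraries, fewer cells of a type and less RNA per cell cannot be told apart.

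The largest decrease among them was in per2 (chromosome 2 in the deposited table), a light-induced period gene, with a log2 fold change of -1.62 ± 0.22 (adjusted p = 2.7e-07). At 2 dpf its level was 11.3 CPM in the shallow VD3 library, against 44.1, 46.2, 71.1 and 73.6 CPM in the other 4, and 9.43 CPM in the shallow ETOH library, against 43.6, 47.6, 54.8 and 58.1 CPM. The gap was widest, as a fold, at 4 dpf: the shallow libraries had 33.8 CPM (VD3) and 28.3 CPM (ETOH), whereas the others had 236 to 328 CPM (VD3) and 289 to 339 CPM (ETOH). Neither age showed any overlap between shallow and other libraries. Larvae at 6 dpf had 232 CPM in the shallow VD3 library, against 388, 407, 471 and 484 CPM, and 178 CPM in the shallow ETOH library, against 407, 451, 489 and 548 CPM. By 7 dpf the shallow VD3 library, at 359.5 CPM, lay inside the range of its group, which was 332, 355, 367 and 481 CPM. The shallow ETOH library at that age, at 257 CPM, was still below its group, at 525, 544, 545 and 612 CPM. Fitted by age, the log2 fold changes of per2 were -2.41, -3.26, -1.15 and -0.55 at 2, 4, 6 and 7 dpf, and they differed between ages (edgeR, adjusted p = 3.39e-09).

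The other light-induced repressor, cry1a (chromosome 4), was below all 4 other libraries in all 8 groups, at -1.01 ± 0.16 (adjusted p = 1.85e-06). At 2 dpf it had 10.1 CPM in the shallow VD3 library, against 40.6, 47.4, 49.9 and 51.1 CPM, and 8.19 CPM in the shallow ETOH library, against 48.1, 48.3, 49 and 49.3 CPM. At 7 dpf the shallow VD3 library had 219.6 CPM, against 233, 235, 237 and 276 CPM, and the shallow ETOH library 232 CPM, against 315, 315, 325 and 329 CPM. The difference therefore shrank with age without an overlap, with a log2 fold change of -2.39 ± 0.10 at 2 dpf and of -0.31 ± 0.09 at 7 dpf. Both per1 genes were lower at 2, 4 and 6 dpf: per1a (chromosome 10) had 0.732 and 0.366 CPM in the shallow VD3 and ETOH libraries at 2 dpf, against 6.57 to 10.2 and 5.96 to 11.3 CPM in the others. Its log2 fold changes by age were -4.0, -1.46, -0.51 and 0.06, and those of per1b were -2.10, -1.46, -0.25 and 0.01, and neither was called at 7 dpf.

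For 3 other repressors, cry2b, per3 and cry2a, the decrease was called at every age. The cryptochrome gene cry2b (chromosome 22) was below all 4 other libraries in all 8 groups, at -1.23 ± 0.12 (adjusted p = 1.77e-10), and its age differences did not pass (adjusted p = 0.784). Its level at 7 dpf was 16.3 CPM in the shallow VD3 library, against 20.9, 22.4, 27.7 and 28.3 CPM, and 13.5 CPM in the shallow ETOH library, against 33.1, 36.4, 40.5 and 45.5 CPM. Lower levels also held for per3 at -0.98 ± 0.09 (adjusted p = 1.65e-10) and cry2a at -0.59 ± 0.06 (adjusted p = 4.75e-10), each below all 4 others in all 8 groups. For per3 at 4 dpf the shallow libraries had 77.1 CPM (VD3) and 86.5 CPM (ETOH), and the others 105 to 200.3 CPM (VD3) and 162 to 181 CPM (ETOH). The remaining members were cry1b (-0.77 ± 0.12), cry3 (-0.56 ± 0.12) and cry4 (-0.37 ± 0.08), all 3 called over all ages but not at each. For cry3 the log2 fold changes by age were -0.71, -1.62, -0.36 and 0.10, and at 7 dpf it had 189 CPM in the shallow VD3 library, above the 160 to 171 CPM of the other 4, and 170.2 CPM in the shallow ETOH library, within the 155 to 178 CPM of the other 4. For cry1b they were -0.64, -1.58, -0.67 and -0.35, the last not called, and for cry4 -0.22, -0.16, -0.47 and -0.67, of which those at 6 and 7 dpf were called.

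Of the 6 activators 4, 1, 5 and 6 were lower at 2, 4, 6 and 7 dpf (background 19.2%, 10.3%, 16.4% and 15.6%), and single members had unlike age profiles. The gene npas2 (chromosome 5), which encodes a partner of Arntl, was below all 4 others in all 8 groups at -1.14 ± 0.11 (adjusted p = 3.58e-10), and its log2 fold changes were -0.80, -0.97, -1.12 and -1.69 at 2, 4, 6 and 7 dpf. At 7 dpf it stood at 7.85 CPM in the shallow VD3 library, against 18.6, 20.5, 23.2 and 27 CPM, and at 7.94 CPM in the shallow ETOH library, against 25.1, 26.3, 30.2 and 34.7 CPM. For arntl1a (chromosome 25), which encodes a Bmal1 protein, the shallow libraries lay within their groups at 2 dpf, where they had 22.9 CPM (VD3) and 23.6 CPM (ETOH), and the others 21.4 to 23.9 CPM (VD3) and 21.4 to 25.6 CPM (ETOH). At 7 dpf arntl1a fell to 9.64 CPM in the shallow VD3 library, against 16.6, 17, 18.5 and 18.7 CPM, and to 8.8 CPM in the shallow ETOH library, against 17.6, 22.8, 22.8 and 23.3 CPM. Its fold changes differed between ages (adjusted p = 6.35e-07), and its overall call was lost without 6 dpf, without 7 dpf and with a block by the titles' replicate numbers (highest adjusted p 0.291). Similar age profiles were fitted for arntl1b (-0.24, 0.16, -0.63 and -1.14) and arntl2 (-0.29, 0.08, -0.63 and -0.95), and the overall call of arntl1b was also lost without 6 dpf and without 7 dpf (highest adjusted p 0.0772). The gene clock, for the partner of the Arntl proteins, was lower at -0.72 ± 0.11 (adjusted p = 2.69e-06), with 12.8 CPM in the shallow ETOH library at 7 dpf, against 30.1, 31.7, 31.7 and 32.4 CPM, and lay within the range of its group at 4 dpf VD3. By age its log2 fold changes were -1.21, -0.36, -0.60 and -0.82, of which that at 4 dpf did not pass. Its paralog clock3 was lower at -0.29 ± 0.08, with -0.78, -0.05, -0.04 and -0.34 by age, and its call was lost without 2 dpf (adjusted p = 0.121).

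Among the nuclear receptors, nr1d1 (REV-ERBα) was lower at 2 and 4 dpf. At 2 dpf it had 1.14 CPM in the shallow VD3 library, against 5.56, 5.75, 6.69 and 7.89 CPM, and 0.744 CPM in the shallow ETOH library, against 4.84, 5.18, 7.54 and 10.8 CPM. At 7 dpf the shallow VD3 library had 765 CPM, against 569, 608, 639 and 649 CPM, and the shallow ETOH library 835 CPM, against 500.3, 554, 656 and 661 CPM, so the shallow libraries were the highest of their groups. By age the log2 fold changes of nr1d1 were -2.85, -1.25, 0.05 and 0.41, of which those at 2 and 4 dpf passed. Its call over all ages (-0.55 ± 0.22, adjusted p = 0.0376) was lost in 8 of 54 alternatives, among them without 2 dpf, without 4 dpf and without any 1 of the 4 shallow libraries of these ages. The REV-ERB gene nr1d2a was likewise lower at 2 and 4 dpf, with log2 fold changes of -2.57, -1.06, -0.12 and 0.12 by age, and its call over all ages (-0.69 ± 0.21, adjusted p = 0.00629) was lost without 2 dpf and without 4 dpf (highest adjusted p 0.0787). Among the ROR genes, rorab was below all 4 others in all 8 groups (-0.51 ± 0.07, adjusted p = 2.72e-07), roraa, rorb and rorca were lower too, as was the REV-ERB gene nr1d2b (-0.50 ± 0.08, adjusted p = 1.18e-06). Of the output factors, tef was lower at -0.68 ± 0.09 (adjusted p = 2.7e-07), hlf2 at -0.61 ± 0.09 and dbp2 at -0.71 ± 0.15, while nfil3 at -0.15 ± 0.08 and e4bp4-2 at -0.18 ± 0.11 were not called. The low-count genes e4bp4-3 (-1.03 ± 0.43, adjusted p = 0.0445) and e4bp4-4 (1.06 ± 0.70, adjusted p = 0.209) carry wide errors, and the call of e4bp4-3 was lost in 18 of 53 alternatives. Of the modifiers, the kinase genes csnk1e (-0.51 ± 0.07) and csnk1db (-0.21 ± 0.04) were below all 4 others in all 8 groups, the ubiquitin ligase gene fbxl3a (-0.59 ± 0.08) and usp2a (-0.27 ± 0.06) were also lower, and nono (0.41 ± 0.05) was the member that was higher. No call was made for csnk1da, fbxw11a, fbxw11b, bhlhe40 or bhlhe41.

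**Figure D2:**
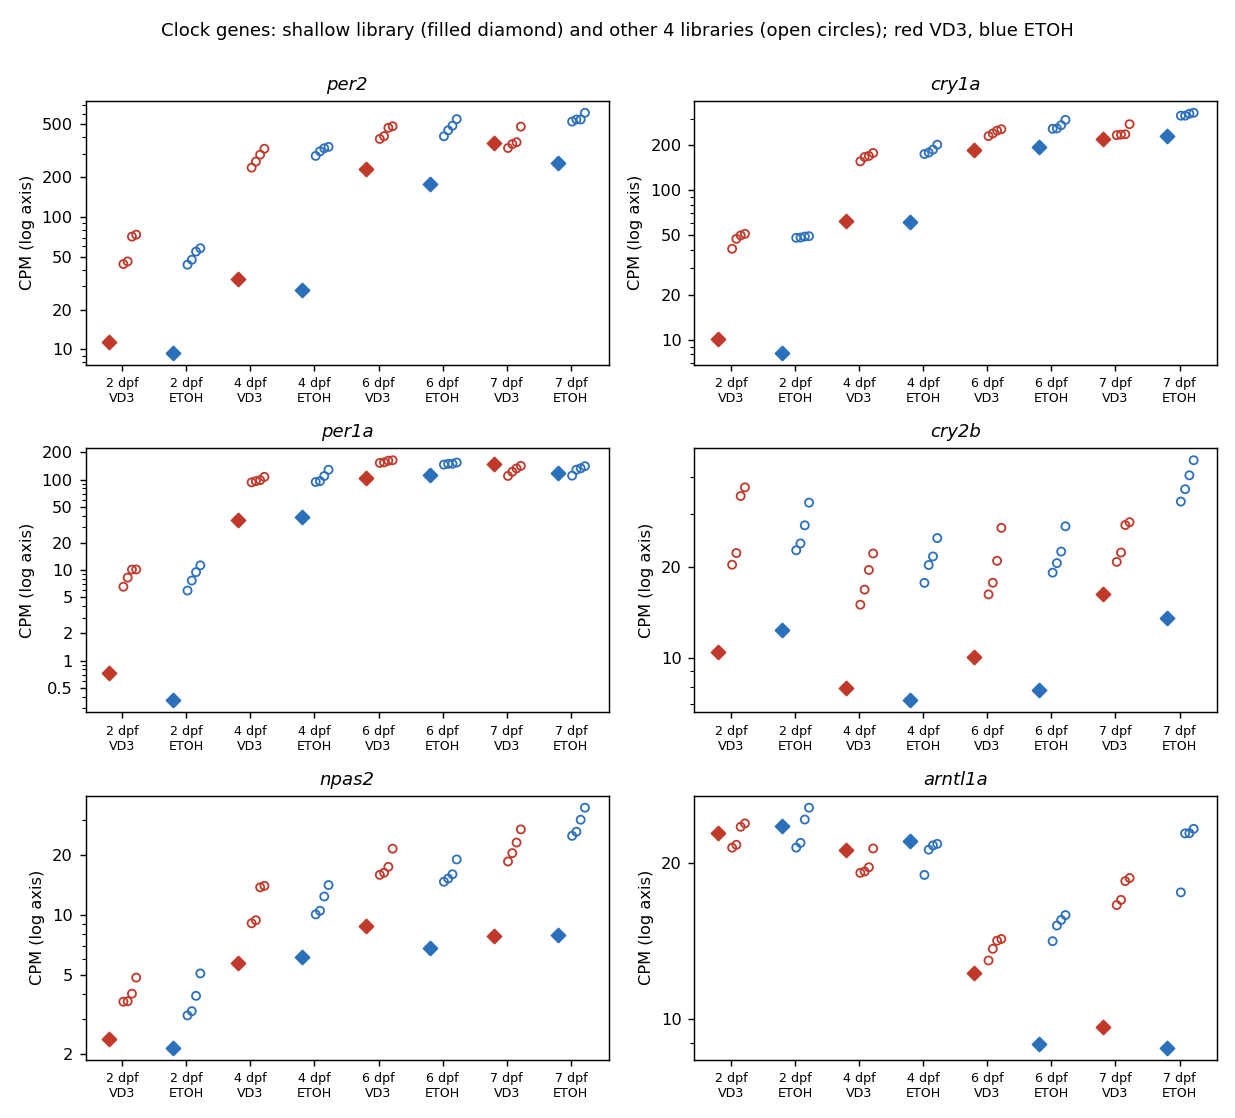
Levels of 6 clock genes in CPM (vertical log axes) in each library, by age and treatment, VD3 in red and ETOH in blue; filled diamonds are the shallow libraries and open circles the other 4. For per2, cry1a and per1a the gap is wide at 2 and 4 dpf and smaller at 7 dpf, where the per2 library of ETOH still lies well below its group, for cry2b and npas2 every diamond lies below its circles, and for arntl1a the diamonds leave the circles at 6 and 7 dpf.

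Light-regulated DNA repair genes were measured beside the clock. Of 6 tested members of that list, 3 were lower and 0 were higher (background 25.2% and 24.2%). The photolyase gene cry5 (chromosome 10) was below all 4 others in all 8 groups at -1.53 ± 0.19 (adjusted p = 2.63e-08): at 4 dpf it had 1.81 CPM in the shallow VD3 library, against 12, 12.7, 12.9 and 14.1 CPM, and 1.66 CPM in the shallow ETOH library, against 11.8, 14.3, 16.2 and 18.5 CPM. Both cry-dash, another photolyase-related gene (-0.79 ± 0.10, adjusted p = 3.06e-08), and ddb2, which encodes a sensor of ultraviolet damage (-0.68 ± 0.11, adjusted p = 2.01e-06), were lower, with the largest difference at 4 dpf (-1.47 ± 0.15 and -1.53 ± 0.15). The repair gene ogg1 was not called (0.07 ± 0.08). Pineal genes gave no common direction: 3 of 11 tested rows of that list were higher and 2 lower (background 24.2% and 25.2%), and the median was 0.00. Here exorh, the pineal opsin, was at 0.62 ± 0.15 and asmtl at 0.39 ± 0.07. The retinal and pineal factor otx5 was at -0.61 ± 0.18 and irbp, a retinoid carrier, at -0.55 ± 0.10. Of 8 clock-linked outputs 3 were lower and 1 higher (background 25.2% and 24.2%). Lower were lpin1, a lipid phosphatase gene (-0.69 ± 0.15), upp2 (-0.57 ± 0.24) and the cold-inducible RNA-binding protein gene cirbp (-0.24 ± 0.04), and fus (0.16 ± 0.06) was higher. The call of upp2 was lost in 20 of 54 alternatives, thinning and both replicate blocks among them (highest adjusted p 0.467), and that of fus in 7 (highest adjusted p 0.366), among them without the shallow library of 4 dpf VD3, 4 dpf ETOH, 6 dpf VD3 or 7 dpf VD3.

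Hormone- and stimulus-induced genes were lower as well. Of 12 tested glucocorticoid-responsive genes 9 were lower and 0 higher (background 25.2% and 24.2%), with a median of -0.61. Of 32 immediate-early genes 19 were lower and 1 was higher (same background), with a median of -0.61. In VD3 alone 15 were lower and 1 higher (background 13.1% and 13.6%, median -0.40). In ETOH alone 7 were lower and 1 higher (background 18.5% and 21.6%, median -0.53), a share lower that is near the background. The summed immediate-early level was below the other 4 libraries in 6 groups, and within its group at 6 and 7 dpf ETOH. The widest gap in the glucocorticoid list was at 2 dpf in fkbp5 (chromosome 6), which encodes a co-chaperone of the glucocorticoid receptor and is a textbook target of it. Its level was 1.19 CPM in the shallow VD3 library, against 101, 106, 118 and 173 CPM, and 1.36 CPM in the shallow ETOH library, against 87.1, 108, 116 and 204 CPM. At 7 dpf the shallow VD3 library, at 723 CPM, lay within its group (303, 506, 638 and 743 CPM), and the shallow ETOH library, at 639 CPM, above its group (469.9, 551, 591 and 591 CPM). Over all ages fkbp5 did not pass (adjusted p = 0.0531), whereas its age difference did (edgeR, adjusted p = 3.54e-12), with log2 fold changes of -6.63, -1.55, -0.29 and 0.31. Other members of that list were lower in the fit that pools all ages: sgk1 (-0.60 ± 0.14), the mineralocorticoid receptor gene nr3c2 (-0.61 ± 0.09), hsd11b2 (-0.44 ± 0.09), which inactivates cortisol, and tat (-0.64 ± 0.15), a liver enzyme. The shallow 7 dpf VD3 library was the highest of its group for tat. At 7 dpf 2 of the 12 members were lower and 1 higher (background 15.6% and 17.6%). Age differences passed for 8 of the 12 (background 31.5%).

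The AP-1 gene fosb fell by 1.44 on the log2 scale (SE 0.34, adjusted p = 0.000768). Its level at 4 dpf was 0.679 CPM in the shallow VD3 library, against 1.37, 1.74, 1.83 and 1.94 CPM, and 0.42 CPM in the shallow ETOH library, against 1.56, 2.93, 5.24 and 5.32 CPM. The spread among the other 4 libraries was wide for this gene, and with limma voom its call was lost (adjusted p = 0.164). Steadier members were jund at -0.98 ± 0.15 (adjusted p = 2.44e-06), the nuclear receptor gene nr4a3 at -1.08 ± 0.14 (adjusted p = 9.77e-08), fosl2 at -0.65 ± 0.10 and nr4a2b at -0.43 ± 0.08. For nr4a3 at 6 dpf the shallow libraries had 37.1 CPM (VD3) and 36.3 CPM (ETOH), below 61.9, 65.5, 75.6 and 75.9 CPM in the other VD3 and 66.8, 72.6, 78.7 and 82.8 CPM in the other ETOH libraries. In jund the gap closed at 7 dpf, with 30.1 and 30 CPM in the shallow VD3 and ETOH libraries, against 29.7 to 32.8 and 26.7 to 46.7 CPM in the others. By age, 16, 7, 11 and 3 of the 32 immediate-early genes were lower at 2, 4, 6 and 7 dpf (background 19.2%, 10.3%, 16.4% and 15.6%).

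Cell-division genes were higher. Of 26 tested S phase and replication genes 23 were higher and 0 lower, and of 21 mitosis genes 19 were higher and 0 lower, with median log2 fold changes of 0.47 and 0.68 (background 24.2% higher). The kinesin gene kif11, whose protein separates spindle poles, was above all 4 others in all 8 groups at 0.83 ± 0.06 (adjusted p = 1.25e-12). It had 257 CPM in the shallow VD3 library at 2 dpf, against 151, 151, 158 and 166 CPM, and 258 CPM in the shallow ETOH library, against 141, 155, 159 and 159.9 CPM. At 7 dpf it had 27 CPM in the shallow VD3 library, against 13.8, 13.9, 14.1 and 16 CPM, and 18.7 CPM in the shallow ETOH library, against 7.32, 7.53, 7.84 and 10.8 CPM. Its level thus fell with age in both sets of libraries while the gap between them stayed. The mitotic kinase gene cdk1 (0.80 ± 0.07), cdc20 (0.82 ± 0.08), which activates the anaphase ubiquitin ligase, and cdca8 (0.71 ± 0.06) of the chromosomal passenger complex were likewise above all 4 others in all 8 groups. So were the replication clamp gene pcna (0.61 ± 0.07), the flap nuclease gene fen1 (0.61 ± 0.07) and rpa1 (0.40 ± 0.05), a single-strand binding subunit, and ccne2, a cyclin of S phase entry (0.78 ± 0.09), was so in 7 groups. Of the 21 mitosis genes 19, 11, 18 and 17 were higher at 2, 4, 6 and 7 dpf (background 17.0%, 7.40%, 16.2% and 17.6%). S phase genes were higher at 2, 6 and 7 dpf (21, 23 and 14 of 26) but 1 of 26 was so at 4 dpf, where pcna had 269.5 and 229 CPM in the shallow VD3 and ETOH libraries, against 217 to 257 and 178 to 198 CPM.

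Summed over its members, the mitosis list was above the other 4 libraries in all 8 groups. In VD3 the sum was 2234, 799, 541 and 329 CPM in the shallow libraries at 2, 4, 6 and 7 dpf, and 1462 to 1539.7, 572 to 707, 278 to 356 and 216 to 229 CPM in the others. In ETOH it was 2287, 698, 426 and 252 CPM in the shallow libraries, and 1366 to 1596, 446 to 581, 195 to 288 and 129 to 165 CPM in the others. The S phase sum was above the other 4 in 6 groups. Markers of muscle moved in the same libraries (21 of 43 higher, 1 lower, background 24.2% and 25.2%). Their summed level was 142250.0 to 173970.0 CPM in the shallow libraries and 102840.0 to 191910.0 CPM in the others, above the other 4 in 5 of 8 groups. Their part in the result was not tested. Histone genes did not exceed the background, with 3 of 13 higher and 1 lower (background 24.2% and 25.2%). The variants h2afvl (0.54 ± 0.04) and h3f3a (0.45 ± 0.05) were above all 4 others in all 8 groups. The gene hist2h2l was at 0.16 ± 0.06 and h2afx, the variant of the DNA damage response, at -0.30 ± 0.07.

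Genes of protein turnover and mitochondria were also higher, by smaller amounts. Of 41 proteasome genes 30 were higher and 0 lower (median 0.29), and of 37 mitochondrial ribosomal protein genes 22 were higher and 1 lower (median 0.20). Of 59 respiratory chain and ATP synthase genes 31 were higher and 3 lower (median 0.12). The background for these lists was 24.2% higher and 25.2% lower. Summed levels were above the other 4 libraries in 6 groups for the proteasome, 6 for mitochondrial ribosomal proteins and 4 for the respiratory chain list, and below in 0. The respiratory chain median at 4 dpf was -0.01. Of the mitochondrial ribosomal genes 8 were higher in VD3 alone (background 13.6%, median 0.11) and 23 in ETOH alone (background 21.6%, median 0.33). Above all 4 others in all 8 groups were the proteasome genes psmc6 (0.46 ± 0.04), psmc1a (0.44 ± 0.05), psmc3 (0.38 ± 0.04) and psmb3 (0.39 ± 0.04). So were the mitochondrial ribosome genes mrps25 (0.45 ± 0.04), mrpl40 (0.53 ± 0.05), mrpl24 (0.46 ± 0.05) and mrpl41 (0.34 ± 0.04), the complex I gene ndufs3 (0.41 ± 0.04), cox7a2 of cytochrome oxidase (0.46 ± 0.05) and atp5c1 of ATP synthase (0.30 ± 0.03). Of the mitochondrially encoded list 1 gene was tested, mt-b, and it was higher at 0.39 ± 0.15, with -0.49, 0.32, 0.74 and 0.77 at 2, 4, 6 and 7 dpf. Its call was lost in 7 of 54 alternatives, among them without any 1 of the 4 shallow libraries of 6 and 7 dpf (highest adjusted p 0.281). Cytosolic ribosomal protein genes split evenly, with 15 of 68 higher and 15 lower, near the background (24.2% and 25.2%). Below all 4 others in all 8 groups were rps10 (-0.60 ± 0.05) and rplp2l (-0.35 ± 0.05), and above was rpl11 (0.30 ± 0.04). The gene rplp1 was lower at -0.47 ± 0.05. Ribosomal protein genes have many near-identical copies, so counts of single members are uncertain.

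Chaperone genes did not share 1 direction. Of 29 tested, 14 were higher and 6 lower (background 24.2% and 25.2%). In ETOH alone 20 were higher and 4 lower (background 21.6% and 18.5%). In VD3 alone 8 were higher and 6 lower (background 13.6% and 13.1%). The gene ahsa1 (chromosome 20), which encodes an activator of the Hsp90 ATPase, had the largest increase among called genes on the same side in all 8 groups (mean log2 CPM of at least 2), at 1.62 ± 0.13 (adjusted p = 4.46e-12), and was above all 4 others in all 8 groups. At 6 dpf it had 11.5 CPM in the shallow VD3 library, against 1.29, 1.97, 2.1 and 2.73 CPM, and 9.91 CPM in the shallow ETOH library, against 2.79, 2.81, 3.61 and 4.07 CPM. For hsp47, a collagen chaperone (1.34 ± 0.18, adjusted p = 1.43e-07), the shallow library was above all 4 others in 7 groups and below all 4 in the 7 dpf VD3 group, at 5.5 CPM, against 7.41, 14.7, 14.7 and 20.9 CPM. The Hsp40 gene dnaja1l was higher (0.59 ± 0.08). The small heat shock protein genes hspb8 (-0.76 ± 0.07) and hspb9 (-1.26 ± 0.20) were lower. In the unfolded protein list 7 of 22 were higher and 5 lower (background 24.2% and 25.2%). In ETOH alone 11 were higher and 3 lower (background 21.6% and 18.5%). In VD3 alone 0 were higher and 3 lower (background 13.6% and 13.1%). The summed level was below the other 4 libraries in 6 groups and above in 0. Among its members creld2 (0.67 ± 0.12) and pdia4 (0.56 ± 0.11), both of the endoplasmic reticulum, were higher. Lower were herpud1 (-0.50 ± 0.06) and chac1 (-0.55 ± 0.10). Hypoxia-responsive genes also split, with 5 of 17 higher and 7 lower (background 24.2% and 25.2%). Here p4ha1, a collagen prolyl hydroxylase, was at 0.70 ± 0.07, cited2 at 0.38 ± 0.07, epas1b (a HIF-2 alpha gene) at -0.67 ± 0.06 and bnip3lb at -0.43 ± 0.06.

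The vitamin D list is the one nearest to the study's treatment. In the shallow libraries 7 of its 10 tested members were lower and 0 higher (background 25.2% and 24.2%), with a median of -0.42. Its summed level was below the other 4 libraries in all 8 groups. Chief among its members is cyp24a1 (chromosome 6), a classic receptor target whose product breaks down active vitamin D, and it was below all 4 others in all 8 groups, at -1.13 ± 0.13 (adjusted p = 1.56e-08). At 2 dpf it had 8.52 CPM in the shallow VD3 library, against 20.3, 21.7, 27.3 and 28.2 CPM in the other VD3 libraries, and 1.64 CPM in the shallow ETOH library, against 2.29, 3.87, 3.88 and 3.89 CPM. The gap at 4 dpf was larger, with 71.7 CPM in the shallow VD3 library, against 206, 277, 337 and 341 CPM, and 14.6 CPM in the shallow ETOH library, against 34.6, 37, 39.1 and 45.9 CPM. At 6 dpf the values were 635 CPM in the shallow VD3 library, against 1095, 1290.5, 1658 and 1689 CPM, and 98.6 CPM in the shallow ETOH library, against 139.9, 146, 153 and 271 CPM. Within each treatment and age the shallow library was thus the lowest, while at every age the shallow VD3 library stayed above every ETOH library. At 7 dpf it had 1088 CPM in the shallow VD3 library, against 1728, 1783, 1812 and 1892 CPM, and 207 CPM in the shallow ETOH library, against 278, 281, 293 and 388 CPM. Both genes of the receptor itself were lower, vdra at -0.95 ± 0.12 (adjusted p = 3.53e-08) and vdrb at -0.65 ± 0.10 (adjusted p = 2.43e-06), as was the gene of a partner receptor, rxrba, at -0.48 ± 0.06 (adjusted p = 1.31e-08). For vdra at 6 dpf the shallow libraries had 9.13 CPM (VD3) and 9.52 CPM (ETOH), and the others 17.7 to 22.3 CPM (VD3) and 26.1 to 33.6 CPM (ETOH); at 4 dpf VD3 the shallow library, at 6.53 CPM, lay within the group's 5.4 to 13.4 CPM.

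**Figure D3:**
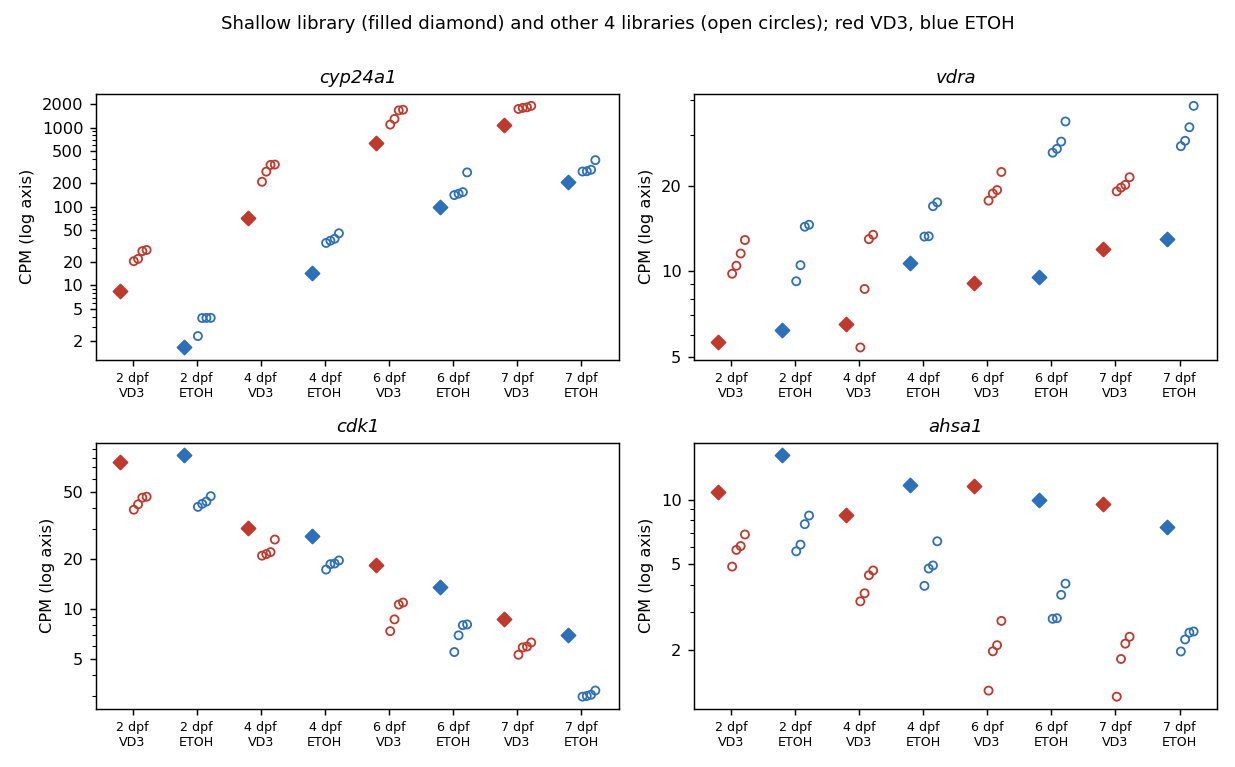
Levels of cyp24a1, vdra, cdk1 and ahsa1 in CPM (vertical log axes) in each library, by age and treatment, VD3 in red and ETOH in blue; filled diamonds are the shallow libraries and open circles the other 4. Every cyp24a1 diamond lies below its circles and every cdk1 and ahsa1 diamond above them; for vdra the 4 dpf VD3 diamond lies within its group.

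Within the shallow libraries, treatment was compared over the 4 ages, with 4 VD3 and 4 ETOH libraries and age as a term. Of 13260 genes tested 1 was called (0.00754%), cyp24a1, at 2.44 ± 0.09 (edgeR, adjusted p = 2.62e-06), and 799 genes had an unadjusted p under 0.05. DESeq2 called 47 and limma voom 8. The same contrast in the other 32 libraries, 16 against 16, called 5444 of 13456 genes (40.5%), cyp24a1 at 2.81 ± 0.11. Of those called genes 5417 were tested in the shallow libraries, and 3804 of them (70.2%) had the same sign there. The 2 contrasts rest on unlike numbers of libraries, so their counts of calls are not comparable. The difference in cyp24a1 response between the shallow and the other libraries did not pass (-0.37 ± 0.21, adjusted p = 0.412). Without 1 of the 4 dpf libraries the shallow contrast called 15 genes (without VD3) or 13 (without ETOH).

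The complementary question, whether the shallow difference depends on treatment, gave 0 called genes of 13650 (edgeR; smallest adjusted p = 0.0595, 2098 genes at an unadjusted p under 0.05), and DESeq2 called 190. The count depended on single libraries: without the shallow VD3 library of 4 dpf 394 genes were called, and without the shallow ETOH library of that age 393. The 5 genes with the smallest p were heatr3, cat, khk, gc and rnaseh1, of which 0 passed. The gene gc, which encodes the vitamin D-binding protein of plasma, had 94.8 CPM in the shallow VD3 library at 6 dpf, against 30.5, 44.9, 54.8 and 60.8 CPM, and 86.7 CPM in the shallow ETOH library, against 109, 113, 115 and 131 CPM. At that age the shallow library was thus above its group in VD3 and below it in ETOH. For heatr3 at 6 dpf the order was opposite, with 24.9 CPM in the shallow VD3 library, against 28.4, 31.1, 34.2 and 37.6 CPM, and 28 CPM in the shallow ETOH library, against 22.1, 22.4, 22.8 and 23.2 CPM. At 4 dpf gc was below its group in both treatments, with 21.7 CPM against 35.7 to 53.4 CPM (VD3) and 16.1 CPM against 36.8 to 70.4 CPM (ETOH). At 7 dpf gc was above its group in VD3 (43.1 CPM against 15.9 to 22.4 CPM). In ETOH at 7 dpf it was within its group (96.8 CPM against 88.7 to 105.4 CPM). The treatment difference was 1.11 ± 0.23 for gc (adjusted p = 0.0633) and -0.44 ± 0.09 for heatr3 (adjusted p = 0.0595).

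The 2 treatments share no library, so the shallow difference was fitted in each alone; all 8 shallow libraries carry number 1 in the exon table, so what that number marks is shared by both fits. In VD3, 4 libraries against 16, 3630 of 13569 genes were called (26.8%, 1850 higher and 1780 lower), and in ETOH 5434 of 13564 (40.1%, 2924 higher and 2510 lower). Genes called in both numbered 2671, which is 73.55% of the VD3 calls and 49.14% of the ETOH calls, and 2670 of them had the same sign. Across 13528 genes the log2 fold changes of the 2 treatments had Spearman rho 0.722 and Pearson r 0.663; genes are not independent replicates. Without the shallow 6 dpf library VD3 alone called 2308 genes, and with limma voom 1490. Of the 40 clock members 23 were lower in VD3 (13.1% of all genes were) and 29 in ETOH (18.5%). Of the 47 S phase and mitosis genes 36 were higher in VD3 (13.6%) and 43 in ETOH (21.6%). Over 10647 genes, Spearman rho between the VD3 and the ETOH shallow library's deviations from the other 4 was 0.837 at 2 dpf, 0.828 at 4, 0.723 at 6 and 0.391 at 7 dpf.

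**Figure D4:**
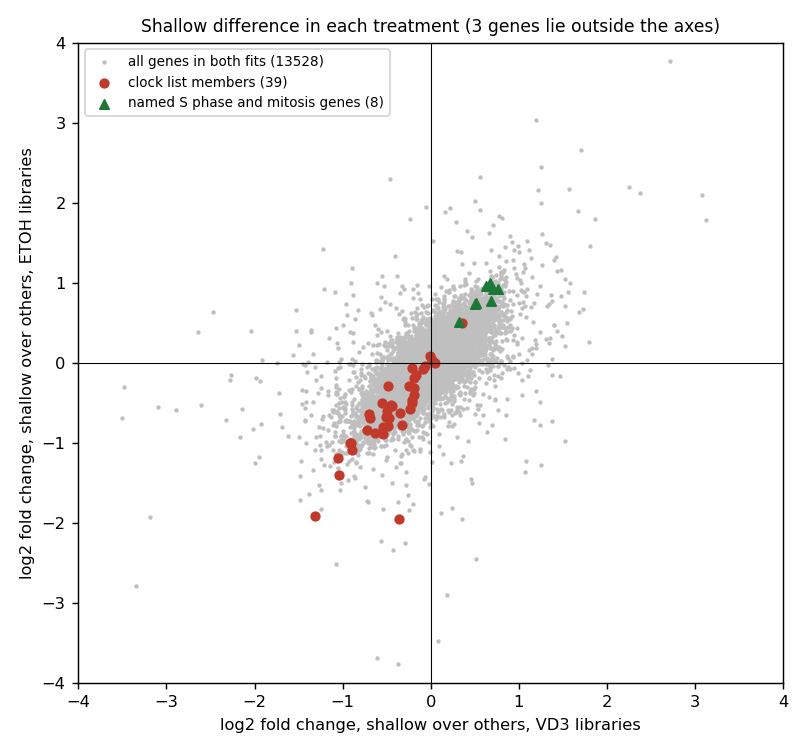
Log2 fold change of shallow over other libraries among VD3 libraries (horizontal axis) and among ETOH libraries (vertical axis), 1 grey point per gene for 13528 genes. Red points are 39 clock list members and green triangles 8 named S phase and mitosis genes; 3 genes lie outside the axes. Clock members fill the lower left and the division genes the upper right.

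Genes of cholesterol synthesis were lower, except at 6 dpf. Of 20 cholesterol biosynthesis and regulation genes 12 were lower and 1 higher (background 25.2% and 24.2%), with a median of -0.29. At 2, 4, 6 and 7 dpf 10, 11, 3 and 6 were lower (background 19.2%, 10.3%, 16.4% and 15.6%). At these ages 0, 0, 3 and 1 were higher (background 17.0%, 7.40%, 16.2% and 17.6%). The sterol oxidase gene sc4mol was below all 4 others in all 8 groups (-1.12 ± 0.14, adjusted p = 2.7e-08): at 4 dpf it had 5.82 CPM in the shallow VD3 library, against 13.5, 13.6, 17.3 and 17.4 CPM, and 3.99 CPM in the shallow ETOH library, against 20.6, 21.2, 27.1 and 35.7 CPM. The LDL receptor gene ldlr (-0.96 ± 0.08, adjusted p = 1.13e-11) and insig1 (-0.79 ± 0.10, adjusted p = 1.09e-07), a brake on sterol synthesis, were also below all 4 others in all 8 groups, and sc5dl was lower at -0.99 ± 0.12. In the list of fatty acid synthesis and oxidation 11 of 28 were lower and 7 higher (background 25.2% and 24.2%). Of its members 2 were above and 1 was below all 4 others in all 8 groups. The lower ones included srebf1, a regulator of fatty acid synthesis (-1.07 ± 0.12), pparab (-0.75 ± 0.10) and fads2, a desaturase (-0.71 ± 0.11). The mitochondrial uncoupling protein gene ucp1 (-1.10 ± 0.11) was also lower. Sugar metabolism split (12 of 36 higher, 7 lower, background 24.2% and 25.2%). There gapdhs (-0.30 ± 0.05), pkm2a (-0.30 ± 0.05) and pfkfb3 (-0.60 ± 0.14) were lower and the muscle enzyme gene pgam2 (0.25 ± 0.05) higher. Beside these, liver markers gave 4 of 32 higher and 6 lower (background 24.2% and 25.2%). Their summed level was 5871 to 12128 CPM in the shallow libraries and 5239.8 to 13437 CPM in the others. It was below the other 4 libraries in 4 groups and above in 1. The part of liver markers in the lipid result was not tested.

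Tissue markers moved in ways that depended on age. Exocrine pancreas genes, which encode secreted digestive enzymes, were lower for 12 of 15 tested and higher for 0 (background 25.2% and 24.2%). At 2 dpf 5 were higher and 1 lower (background 17.0% and 19.2%), at 4 dpf 13 were lower (background 10.3%), at 6 dpf 11 (16.4%) and at 7 dpf 2 (15.6%). The list's summed level at 4 dpf was 762 CPM in the shallow VD3 library, against 1831 to 3030.0 CPM, and 1014 CPM in the shallow ETOH library, against 3091 to 5159 CPM. At 2 dpf, when the summed level was low in every library, it was 24.1 CPM in the shallow VD3 library, against 14.5 to 18 CPM, and 20.6 CPM in the shallow ETOH library, against 16.7 to 17.6 CPM. The carboxypeptidase gene cpa1 had 2.56 CPM in the shallow VD3 library at 4 dpf, against 8.91, 9.66, 10.6 and 12.2 CPM, and 2.43 CPM in the shallow ETOH library, against 7.84, 9.32, 9.83 and 11.4 CPM. Its age differences passed (adjusted p = 0.0131), as did those of the trypsin gene try (adjusted p = 0.00111). The lipase genes cel.1 and cell were lower at -0.94 ± 0.17 and -0.85 ± 0.16.

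Eye genes differed by age. Of 40 photoreceptor genes 22 were lower and 2 higher at 2 dpf (background 19.2% and 17.0%, median -0.61), with a summed level of 669.7 CPM in the shallow VD3 library, against 891 to 1315 CPM, and 674 CPM in the shallow ETOH library, against 944 to 1257 CPM. At 7 dpf 9 were higher and 2 lower (background 17.6% and 15.6%), with a summed level of 6851 CPM in the shallow VD3 library, above its group's 4232 to 5988 CPM, and 7788 CPM in the shallow ETOH library, below its group's 10144 to 11190.0 CPM. Among single genes nr2e3, a photoreceptor nuclear receptor (0.54 ± 0.05), and the red cone opsin gene opn1lw1 (1.21 ± 0.15) were above all 4 others in all 8 groups, pde6g (-0.51 ± 0.05) was below, and guca1a was at 0.82 ± 0.15. Lens genes were lower at 2 dpf (13 of 47, against 1 higher, background 19.2% and 17.0%) and higher at 7 dpf (30 of 47, 0 lower, background 17.6%). The summed lens level at 7 dpf was 29485 CPM in the shallow VD3 library, against 11804 to 18179 CPM, and 24612 CPM in the shallow ETOH library, against 25063 to 26197 CPM. The shallow library was thus above its group in VD3 and below it in ETOH. The crystallins crygm2d8 (0.65 ± 0.11), crygm2d13 (0.46 ± 0.09) and crygs1 (1.30 ± 0.18) were higher, and the crygm2d genes belong to a family of near-identical copies among which reads may be shared. The lens gap junction gene gja3 was lower (-0.47 ± 0.10).

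Innate immune genes were higher mainly at 7 dpf, and 0 of 29 were called higher at 2 and 4 dpf. At 6 dpf 8 were higher and 3 lower (background 16.2% and 16.4%), with a median of 0.24. At 7 dpf 17 were higher and 0 lower (background 17.6% and 15.6%), with a median of 0.96. The lysozyme gene lyz, of macrophages and neutrophils, was above all 4 others in all 8 groups (0.88 ± 0.12, adjusted p = 3.3e-07). At 7 dpf it had 45.8 CPM in the shallow VD3 library, against 8.3, 12, 16.2 and 20.2 CPM, and 59.2 CPM in the shallow ETOH library, against 21.7, 22.8, 24.6 and 25.8 CPM. The immunoproteasome gene psmb8 (1.22 ± 0.21), the interferon factor gene irf1 (0.86 ± 0.15) and the neutrophil gene npsn (0.58 ± 0.10) were also higher. For irf1 at 7 dpf the shallow libraries had 1.81 CPM (VD3) and 2.99 CPM (ETOH), and the others 0.768 to 1.22 CPM (VD3) and 0.626 to 1.13 CPM (ETOH). The summed level of the list at 7 dpf was 512 CPM in the shallow VD3 library, within its group's 369 to 517 CPM, and 510.0 CPM in the shallow ETOH library, against 272 to 281 CPM. At 6 dpf the sum lay within both groups, at 342 CPM in VD3 (others 340 to 455 CPM) and 395 CPM in ETOH (others 283 to 449 CPM).

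Digestive and liver markers depended on age. Over all ages 5 of 20 intestine genes were lower and 1 higher (background 25.2% and 24.2%). Of the 20, 14 were lower at 4 dpf (background 10.3%), 8 higher at 6 dpf (16.2%) and 6 higher at 7 dpf (17.6%). Their summed level was below the other 4 libraries in 3 groups and above in 5. At 7 dpf the shallow VD3 library had 903 CPM, against 726 to 810 CPM. The shallow ETOH library had 2281 CPM, against 1545.5 to 1710 CPM. Of 32 liver genes 12 were lower at 4 dpf (10.3%) and 11 higher at 7 dpf (17.6%). The summed liver level at 7 dpf was 5871 CPM in the shallow VD3 library, within its group's 5239.8 to 6294 CPM. In the shallow ETOH library it was 10054 CPM, below its group's 11049 to 12583 CPM. The peptide and glucose transporter genes slc15a1b (-0.74 ± 0.15) and slc5a1 (-0.61 ± 0.13) were lower over all ages, with -1.68 ± 0.23 and -1.46 ± 0.17 at 4 dpf. The intestinal factor gene cdx1b (-0.40 ± 0.12), cldn15a (-0.23 ± 0.06) and the liver genes hpd (-0.31 ± 0.07) and serpind1 (-0.32 ± 0.09) were lower as well. With limma voom the calls of cdx1b (adjusted p = 0.173) and cldn15a (adjusted p = 0.0624) were lost. The liver-made lipoprotein gene apoa1 was at 0.47 ± 0.13 (adjusted p = 0.00405) and its call was lost without the shallow 6 dpf VD3 library and without 6 dpf. Muscle genes were higher for 21 of 43 and lower for 1 (background 24.2% and 25.2%). The troponin genes tnnt3a (0.99 ± 0.11) and tnni2a.4 (0.38 ± 0.05) and the myosin light chain gene myl1 (0.34 ± 0.04) were above all 4 others in all 8 groups, and tnnc1b (0.56 ± 0.06) was so in 7. In red blood cells 5 of 25 were higher and 3 lower, neither above the background (24.2% and 25.2%). The iron importer gene slc25a37 of heme-making mitochondria (-1.07 ± 0.10, adjusted p = 1.99e-10), the heme enzyme gene fech (-0.57 ± 0.10) and rhag (-0.46 ± 0.06) were lower, and the embryonic globin gene hbbe3, one of several near-identical globins, was higher (2.14 ± 0.38). At 6 dpf ETOH hbbe3 had 2.81 CPM in the shallow library, against 0.0256, 0.0272, 0.0579 and 0.067 CPM.

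Of 37 neuron and glia genes 16 were lower and 6 higher over all libraries (background 25.2% and 24.2%). In VD3 alone 2 were lower and 6 higher (background 13.1% and 13.6%). In ETOH alone 19 were lower and 2 higher (background 18.5% and 21.6%). At 7 dpf 3 were lower and 10 higher (background 15.6% and 17.6%). Their summed level at 7 dpf was 5097 CPM in the shallow VD3 library, against 3242 to 4203 CPM, and 4314 CPM in the shallow ETOH library, against 4721 to 5009 CPM. Of 26 neuropeptide and pituitary hormone genes 10 were lower and 2 higher, with 4 lower and 2 higher in VD3 alone and 11 lower and 1 higher in ETOH alone (same backgrounds). The serotonin transporter gene slc6a4a (-0.62 ± 0.08) was below all 4 others in all 8 groups and the dopamine synthesis gene th (-0.42 ± 0.06) in 7, while the radial glia gene fabp7a (0.60 ± 0.06) was above all 4 in all 8 groups and stmn2b (0.43 ± 0.06) in 7. The hormone subunit gene cga (-1.12 ± 0.15), crh, the hypothalamic releaser of the stress axis (-0.56 ± 0.09), and sst1.1 (-0.52 ± 0.07) were lower, and sst2, a somatostatin gene, was higher (0.68 ± 0.10). Pigment genes were higher for 7 of 16 and lower for 3 (background 24.2% and 25.2%), and their direction depended on age. At 2 dpf 0 were higher and 5 lower (background 17.0% and 19.2%), and at 6 dpf 9 were higher and 2 lower (background 16.2% and 16.4%). Their summed level was below the other 4 libraries in both 2 dpf groups and above them in the 6 groups of later ages. The pteridine enzyme genes gch2 (0.64 ± 0.09) and pts (0.68 ± 0.16) and the iridophore gene pnp4a (0.41 ± 0.08) were higher and the receptor gene kita (-0.48 ± 0.06) lower. In bone, cartilage and matrix 11 of 30 were higher and 6 lower (background 24.2% and 25.2%). This list also turned with age, with 0 higher and 11 lower at 2 dpf (background 17.0% and 19.2%). At 7 dpf 10 were higher and 3 lower (background 17.6% and 15.6%). The cartilage genes epyc (0.57 ± 0.08), col9a1 (0.86 ± 0.13) and col9a2 (0.51 ± 0.08) were higher and the fibronectin gene fn1b lower (-0.62 ± 0.09). Epidermis and ionocyte genes had shares near the background: 10 of 30 were lower and 6 higher (background 25.2% and 24.2%). Among them slc12a10.2, an ionocyte transporter, was at -0.65 ± 0.12, the annexin genes anxa1b at 0.71 ± 0.10 and anxa1c at 0.36 ± 0.07, and the protease gene capn9 at 0.53 ± 0.08.

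**Figure D5:**
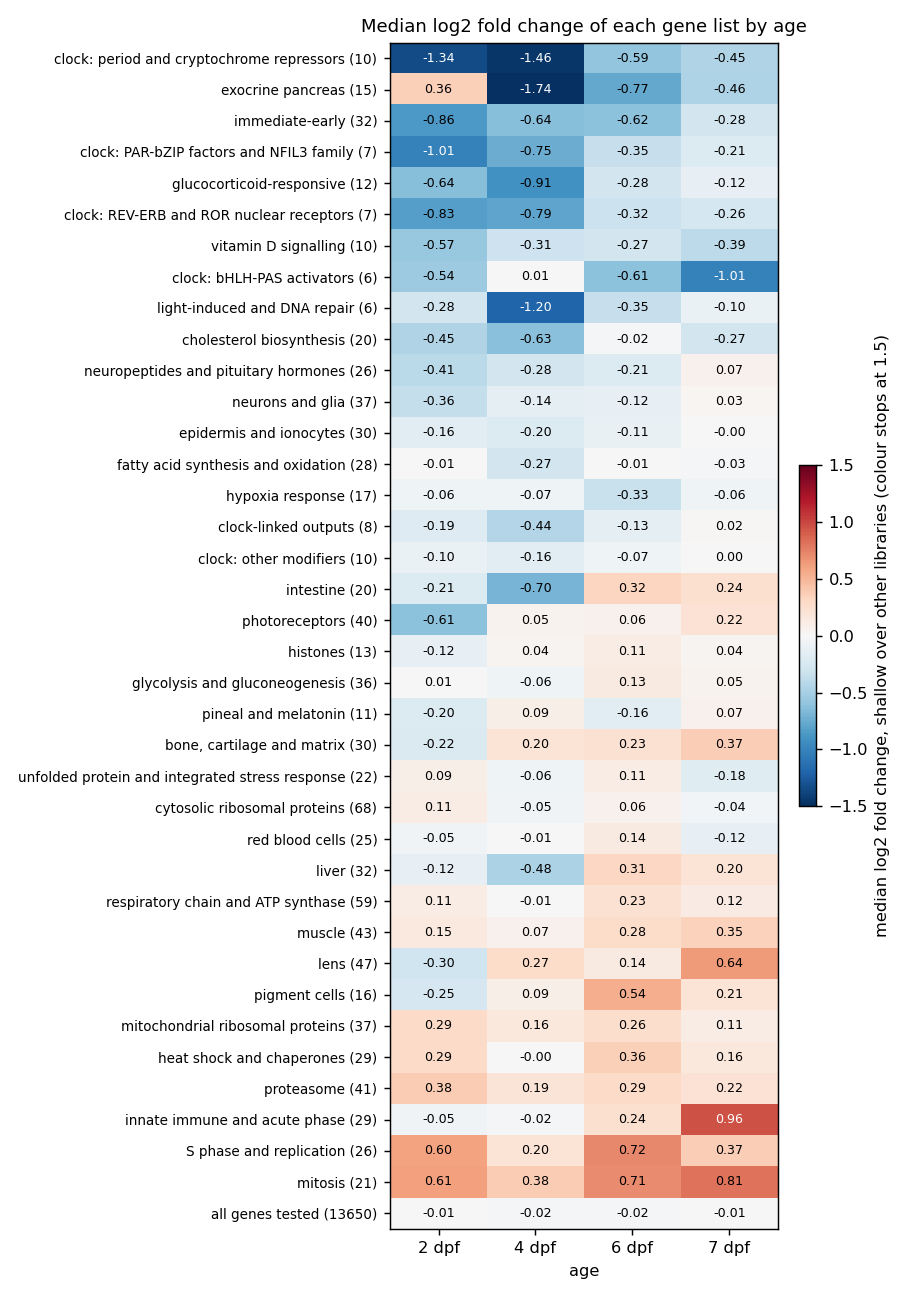
Median log2 fold change, shallow over other libraries, of 37 gene lists and of all genes tested (bottom row), at each age; the number of genes tested stands in brackets and colour runs with the printed value, red for higher and blue for lower. Period and cryptochrome genes are lowest at 2 and 4 dpf, the pancreas list is at 0.36 at 2 dpf and -1.74 at 4 dpf, and the mitosis list is above 0 at all 4 ages.

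Outside the lists, the largest differences held in all 8 groups were spread over unlike genes. Higher genes included rcn3, an endoplasmic reticulum calcium-binding protein (0.94 ± 0.10, adjusted p = 1.19e-09), trappc2l of the vesicle-tethering TRAPP complex (0.95 ± 0.12), atoh7, the factor of retinal ganglion cell formation (0.91 ± 0.12), and 4 genes of division and DNA upkeep: hmmr (1.11 ± 0.12), the kinetochore gene ska3 (0.94 ± 0.09), dscc1 (0.88 ± 0.11) and the endonuclease gene mus81 (0.92 ± 0.09). For rcn3 at 4 dpf the shallow libraries had 25 CPM (VD3) and 20.9 CPM (ETOH), and the others 10.9 to 17.9 CPM (VD3) and 10.3 to 13.6 CPM (ETOH). The RNA-binding protein gene rbmx2 (1.39 ± 0.28) also shows how the other 4 libraries can divide. At 4 dpf its VD3 values were 8.31 CPM in the shallow library, against 4.05, 4.64, 15.4 and 15.6 CPM, which places the shallow library between 2 low and 2 high ones. At 7 dpf it had 29.8 CPM in the shallow VD3 library, against 4.09, 4.29, 5.41 and 6.69 CPM. Lower genes included zbtb20, a zinc finger repressor (-1.52 ± 0.15, adjusted p = 3e-10), foxo1a, a forkhead factor restrained by insulin signalling (-1.23 ± 0.09, adjusted p = 5.68e-13), c6ast3, an astacin protease gene (-1.35 ± 0.20), and rnf44 (-1.12 ± 0.12). For foxo1a at 6 dpf the shallow VD3 library had 19.8 CPM, against 45.3, 52.3, 63.5 and 64.2 CPM, and the shallow ETOH library 15.1 CPM, against 41.5, 42.1, 42.3 and 44.7 CPM. The gene pqbp1l was higher at 0.99 ± 0.14.

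A last comparison asks whether the shallow difference itself depends on age. It did for 4300 of 13650 genes (31.5%, edgeR, 3 coefficients tested together). The test counts the VD3 and the ETOH shallow library of an age as independent. Their deviations from the group means were correlated, with r of 0.869, 0.873, 0.719 and 0.416 at 2, 4, 6 and 7 dpf. An effect of age therefore cannot be told apart from what the 2 shallow libraries of an age share, and the p-values may be too small. Fitted by age, calls numbered 4941 at 2 dpf (36.2%; 2314 higher and 2627 lower), 2422 at 4 dpf (17.7%; 1010 and 1412), 4440 at 6 dpf (32.5%; 2208 and 2232) and 4534 at 7 dpf (33.2%; 2404 and 2130). Genes higher at all 4 ages numbered 214 and lower at all 4 numbered 295, and 546 were called in opposite directions at different ages. Each age rests on 2 shallow libraries: without the VD3 one, 933 genes were called at 4 dpf and 2206 at 6 dpf, and without the ETOH one 1663 at 2 dpf, 458 at 4 dpf and 2374 at 6 dpf. The genes with the smallest p were per1b, cry1a, cry3, fkbp5 and mylipb. The last, a ubiquitin ligase gene, had log2 fold changes of -2.0, -1.15, 0.03 and 0.37 at 2, 4, 6 and 7 dpf (adjusted p for the age difference 3.54e-12). Of the 40 clock members 26 passed this test, as did 13 of 26 S phase genes, 4 of 21 mitosis genes, 29 of 47 lens genes and 17 of 20 intestine genes (background 31.5%).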

How the data were processed

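Poly-A RNA of 40 pools of zebrafish embryos or larvae was sequenced as 51-base paired reads after 15 PCR cycles, per the labels' protocols, with sequencing kit version 1 or 3 and no library named for either. Per the submitters' processing notes CASAVA 1.4 and HTSeq 0.5.3p3 were used; the aligner and whether counting used strand are not given in the sources used here, so overlapping antisense genes cannot be told apart. The authors deposited raw counts, not normalized, for 14267 genes, some of whose names carry Zv9 scaffolds. The deposited exon table holds counts for 194750 exons, and 8 of its columns are blank in most rows, so it was used only to check library identity.

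The 8 shallow libraries, the 38 gene lists and the comparisons were chosen with earlier results of these data known. Genes too low by edgeR's filterByExpr were dropped, which left 13650 of 14267 in the fit of all libraries, and TMM-scaled counts were fitted with a group term and a shallow term (edgeR 4.0.16 in R 4.3.3, robust quasi-likelihood test, Benjamini-Hochberg adjusted p under 0.05 over all genes tested). VD3 alone, ETOH alone, the treatment difference, the age difference and calcitriol within the shallow libraries were fitted likewise; the fit by age was added after seeing the data. Composition was compared with an exact permutation test of which library is shallow within each group (390625 arrangements). A median of 74646704.5 counts per shallow library and 164822955 per other library sets the precision.

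Named genes were every clock member, up to 12 genes each way with the largest called change on the same side in all 8 groups and mean log2 CPM of at least 2, the 4 smallest p of every other list, the 5 smallest p for the treatment and the age difference, and cyp24a1, vdra and vdrb. Some genes that this rule names are not reported here. On simulated counts the fit of all libraries recovered 100% of 100 genes changed by 1 on the log2 scale and 99% of 100 changed by 0.5, with 13 false calls among 13616 genes. For changes of 0.5 the smaller fits recovered 74% (ETOH alone), 71% (VD3 alone) and 40% (calcitriol within the shallow libraries). The simulated libraries were independent, with the same dispersion for every gene. The real libraries of a group were unequally alike, so these values check the code and do not measure error rates in these data. Alternatives were other scaling and filters, DESeq2 1.42.0, limma 3.58.1 voom, thinning, replicate blocks, and leaving out each library or age.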

Additional observations from a re-analysis of the deposited data

Results flagged for a closer look

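In a group of 5 libraries, a library was marked when its gap to the nearest other one, divided by the range of the group, exceeded Dixon's 95% critical value; chance marks about 1 in 20 groups. By total count the shallow library of the 6 dpf VD3 group was marked, with a ratio of 0.751, which is a description only, since the total is the value that chose these libraries. By genes detected after thinning, the shallow library of the 7 dpf VD3 group was marked, with a ratio of 0.866. Among 1528 combinations of a named gene and a group, the shallow library was marked in 357 (23.4%) and another library in 16 (1.05%); most of the named genes were chosen for their difference in the shallow libraries, so the first share describes that choice.

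The shallow difference itself depended on age for 4300 genes (edgeR's quasi-likelihood test of 3 coefficients). The smallest adjusted p-values were 6.62e-16 for per1b, 4.96e-15 for cry1a and 3.54e-12 for each of fkbp5, cry3 and mylipb. In the deposited exon table, outside the gene counts compared here, a median of 87.2% of counts fell on exons without a gene name in the 32 complete columns (86.9% to 87.6%), and 168200 rows are blank for the shallow libraries.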

How the results depend on the processing

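The count of genes that differ in the shallow libraries stayed between 5134 (without 6 dpf) and 7390 over all alternatives run, and between 6222 and 6817 when 1 library was left out. With a replicate block by the titles' numbers it was 5525, and by the exon table's numbers 7390; there number 1 is the set of shallow libraries, so it was set against the mean of numbers 2 to 5 and the 2 cannot be told apart. Correlations between VD3 and ETOH libraries of 1 number and age were -0.592 to 0.721 by the titles' numbers, with 6 of 20 over 0.1. By the exon table's numbers they were 0.0869 to 0.873, with 19 of 20 over 0.1. Neither numbering met the rule of over 0.1 in every pair, and 5 and 24 of 40 libraries correlated best with their own number. Libraries of 1 exon table number thus deviated alike in most pairs. Apart from the shallow term, the main fits have no term for that number. Leaving out 1 library gave 2308 to 3745 genes for VD3 alone, 4263 to 5741 for ETOH alone, 0 to 394 for the treatment difference, 2922 to 4854 for the age difference and 1 to 15 for calcitriol within the shallow libraries. By age the ranges were 1663 to 5198 at 2 dpf, 458 to 2665 at 4 dpf, 2206 to 4679 at 6 dpf and 3067 to 4613 at 7 dpf. Leaving out 1 group gave 0.245 to 0.485 percentage points for the 10 most abundant genes and -88.8 to -45.8 detected genes.

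VD3 alone gave 1490 genes with limma voom. The treatment difference gave 6 genes without scaling factors, 190 with DESeq2 and 7 after thinning. Calcitriol within the shallow libraries gave 2 without scaling factors, 47 with DESeq2 and 8 with voom. Of 191 named genes, 165 stayed on their side of the threshold under every alternative run, and the called ones among them kept direction. Direction was not counted for genes that were not called, and gc, for example, ranged from -0.404 to 0.339. The gene bhlhe40 reversed to 0.14 without 4 dpf (edgeR, adjusted p = 0.0166). Over all alternatives 10 to 23 of 32 immediate-early, 6 to 13 of 20 cholesterol and 8 to 13 of 15 pancreas genes were lower, and 0 to 12 of 32 liver genes were higher. The cause was not tested. Alternatives by share of reads on a gene's last exon were not run, since the exon table gives no strand and is blank for the shallow libraries. Low counts, as in hbbe3, fosb and the e4bp4 genes, limit precision.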
